A study of Homo sapiens with 6 samples.

Results

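The genes described are 9 factors that prevent or resolve R-loops, chosen by name: AQR, DHX9, DDX5, DDX21, DDX41, XRN2, THOC1, SRSF1 and SENP3. All 9 are among the 25330 gene symbols counted, and all 9 are among the 14199 genes that passed the filter on low counts. The data are read counts from poly-A selected, strand-specific RNA libraries of untreated MDA-MB-231 cells, a widely used line of triple-negative breast cancer. One set of cells is labelled RNASEH2A KO (library names RN1), with the catalytic subunit of RNase H2 targeted, and the other CTRV2 control, with 3 libraries of each from different passages and 1 batch label for all. The labels do not say whether the knockout is 1 clone or a pool, nor what the control carries, so the tests speak of variation among passages of these cells.

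An R-loop forms when a nascent RNA pairs with its DNA template and leaves the other DNA strand unpaired. RNase H enzymes cut the RNA of such hybrids, whereas helicases unwind them, and splicing, packaging and export factors limit the RNA that is free to pair. RNase H2 also removes single ribonucleotides from DNA. The comparison asks whether transcripts of the hybrid-resolving genes differ when the RNase H2 catalytic subunit is targeted.

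The helicases among the 9 share an ATP-binding and unwinding core, whose motif II carries the residues that coordinate ATP hydrolysis. DDX5, DDX21 and DDX41 are DEAD-box helicases and DHX9 is a DEAH-related one. The coding bases around motif II are shown to compare these 4 members, from their principal GENCODE 29 transcripts, with 60 bases each and the 12 bases of the motif in capitals.
DHX9: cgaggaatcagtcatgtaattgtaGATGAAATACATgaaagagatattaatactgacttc
DDX5: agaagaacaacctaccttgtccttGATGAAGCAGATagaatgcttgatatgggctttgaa
DDX21: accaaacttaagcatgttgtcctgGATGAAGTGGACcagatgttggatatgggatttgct
DDX41: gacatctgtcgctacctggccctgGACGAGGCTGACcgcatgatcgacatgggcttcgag
The motif was looked up by the residues DEIH in DHX9, DEVD in DDX21 and DEAD in DDX5 and DDX41, so its presence was set in advance. Each string occurred 1 time in its reading frame. It started at codon 511 of 1270 in DHX9, 248 of 614 in DDX5, 339 of 783 in DDX21 and 344 of 622 in DDX41. AQR, also a helicase, was not searched.

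Library totals ran from 27928670 to 31596286 counts in RNASEH2A KO and from 25419877 to 29635083 in CTRV2 control. Levels are given in CPM, counts scaled to library size with TMM factors. RNASEH2A itself had 7, 8 and 16 counts in the RNASEH2A KO libraries, against 10, 6 and 15 in the CTRV2 control libraries, so its count does not check the labels and every direction below rests on them. The labels do not say whether reads that overlap several genes were kept, so whether these low counts reflect the level of the RNA was not tested. The log2 ratio was -0.04 with a pseudocount of 0.5 CPM (exact two-sided permutation p = 0.8, the minimum for this design being 0.1), and 30.8% of its exonic bases in GENCODE 29 also belong to THSD8, which lies on its strand. RNASEH1, the other hybrid-cutting enzyme, was at 25.7 ± 2.01 CPM in RNASEH2A KO and 26.6 ± 1.06 CPM in CTRV2 control (SD, n = 3 each, edgeR adjusted p = 0.773). The other RNase H2 subunits, RNASEH2B at 34.9 CPM in RNASEH2A KO and 39.1 CPM in CTRV2 control (edgeR adjusted p = 0.334) and RNASEH2C at 85.3 and 77.3 CPM in the same order (0.232), did not pass either. All 6 mesenchymal breast cancer markers were counted, at a summed 5555 to 5864 CPM in RNASEH2A KO and 5833 to 6249 CPM in CTRV2 control. The 9 luminal breast markers summed to 1461 to 1548 CPM in RNASEH2A KO and 1600 to 1673 CPM in CTRV2 control, mostly the keratins KRT8, KRT18 and KRT19. Of these 9, ESR1 was at 0 in every library and PGR and FOXA1 averaged under 1 CPM. The 4 leukocyte markers counted summed to 2.59 to 4.36 CPM in RNASEH2A KO and 4.18 to 5.26 CPM in CTRV2 control. On the first principal component of log2 CPM (52.1% of the variance), RNASEH2A KO replicate 1 was at 15.0. RNASEH2A KO replicates 2 and 3 were at 33.1 and 31.1, and the CTRV2 control libraries at -26.7 to -25.9. On the second component (22.0%), RNASEH2A KO replicate 1 stood apart, at 32.7 against -19.0 and -3.74 for RNASEH2A KO replicates 2 and 3. CTRV2 control replicate 1 lay on the same side, at 12.4 against -10.6 and -11.7 for CTRV2 control replicates 2 and 3. The part of these differences in the results was not tested beyond leaving out libraries.

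Of the 9 R-loop factors, DHX9 fell and none rose in RNASEH2A KO cells, and 8 did not pass the test. The test was edgeR's quasi-likelihood F test, two-sided, with Benjamini-Hochberg adjustment over all 14199 tested genes and a threshold of 0.05. Over all tested genes, 12.1% were called, 5.88% higher and 6.22% lower, so 1 call among 9, or 11.1%, is a share near the background. DHX9, XRN2, DDX21 and SRSF1 had an unadjusted p under 0.05, or 44.4%, against 27.7% of all tested genes. The median log2 fold change of the 9 was -0.16, beside 0.00354 over all tested genes, and 8 of the 9 were below 0, as were 7015 of the 14199. Summed over the 9 genes, the level was 1452, 1535 and 1522 CPM in RNASEH2A KO replicates 1 to 3 and 1678, 1658 and 1664 CPM in CTRV2 control replicates 1 to 3. The library values of 4 members did not overlap between the groups, with DHX9, XRN2 and DDX21 below all controls and DDX41 above them. Among all tested genes 33.5% did not overlap, 17.4% with RNASEH2A KO below and 16.1% above.

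**Figure D1:**
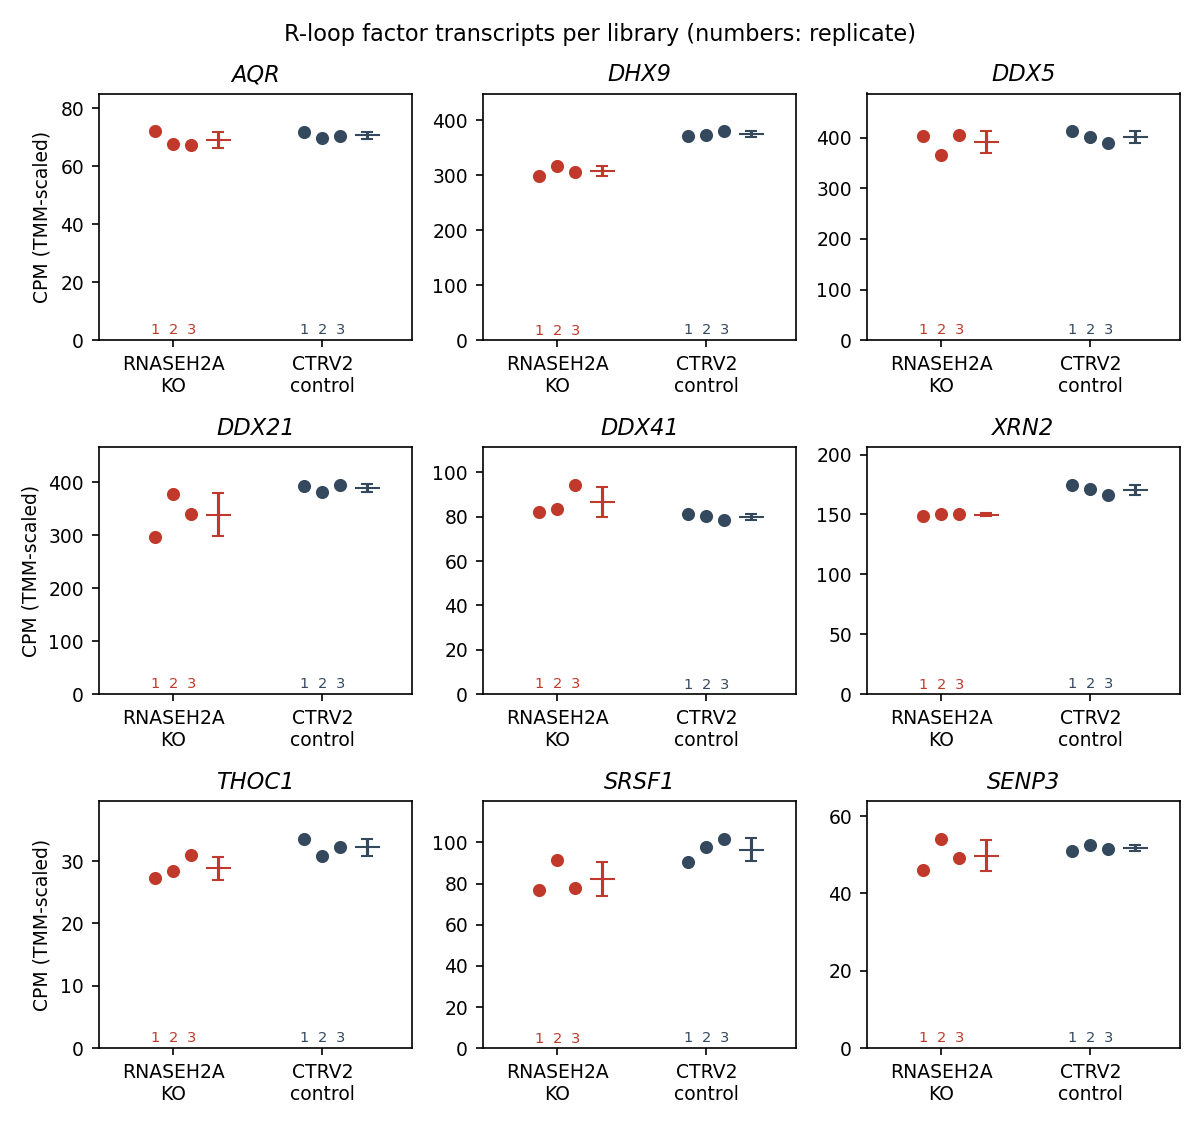
Level of each of the 9 R-loop factors in every library, in TMM-scaled CPM on axes that start at 0. Points are libraries numbered by replicate, bars are mean ± SD of 3 libraries, and RNASEH2A KO stands left of CTRV2 control. DHX9, XRN2 and DDX21 are lower in all 3 RNASEH2A KO libraries than in any control, and DDX41 is higher. AQR, DDX5, THOC1, SRSF1 and SENP3 overlap.

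Levels of different genes were compared per kilobase of the principal transcript. DDX5 was the highest, at 153 ± 8.46 CPM per kilobase in RNASEH2A KO and 157 ± 4.70 in CTRV2 control (SD, n = 3 each). DHX9 (72.4 ± 2.05 in RNASEH2A KO and 88.4 ± 1.15 in CTRV2 control) and DDX21 (71.8 ± 8.55 and 82.6 ± 1.57, in the same order) followed, and in RNASEH2A KO this pair did not differ beyond its spread. SRSF1 came next at 54.2 ± 5.42 CPM per kilobase in RNASEH2A KO and 63.8 ± 3.79 in CTRV2 control, then XRN2 at 43.6 ± 0.306 and 49.6 ± 1.26 and DDX41 at 33.2 ± 2.57 and 30.7 ± 0.517. SENP3 (19.1 ± 1.55 in RNASEH2A KO and 19.8 ± 0.294 in CTRV2 control), THOC1 (13.8 ± 0.882 and 15.4 ± 0.644) and AQR (7.12 ± 0.279 and 7.29 ± 0.117) were the lowest. The order depends on which transcript is used: over the union of all annotated exons, DDX21 had the highest mean per kilobase, at 72.4, before DHX9 at 60.4 and DDX5 at 53.7.

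DHX9, also called RNA helicase A, unwinds RNA-DNA hybrids and structured RNA and lies at chromosome 1, 182839369 to 182887751, plus strand (GENCODE 29, GRCh38). It had 299, 316 and 306 CPM in RNASEH2A KO replicates 1 to 3, against 370, 374 and 380 CPM in CTRV2 control replicates 1 to 3. Every RNASEH2A KO library was below every CTRV2 control library, and the gap between the groups was wider than the range within either. The log2 fold change was -0.29 ± 0.05 (SE, 95% interval -0.41 to -0.16), a change of -18.0%, with an edgeR adjusted p = 0.0104. Without RNASEH2A KO replicate 3, CTRV2 control replicate 2 or CTRV2 control replicate 3 the adjusted p was 0.0613, 0.0622 and 0.0743, while the log2 fold change over the 6 fits that leave out a library ran from -0.30 to -0.27. Over all 16 alternatives the adjusted p ran from 0.000236 to 1, where 1 came from a test against a 1.5-fold change.

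Genes around DHX9 mostly had negative fold changes as well. Of the 40 tested genes nearest to it, 20 on each side over 8.33 Mb, 34 had a log2 fold change below 0, 12 were called lower and 0 higher, and their median was -0.26. By library, the neighbours' median lay -0.19, -0.30 and -0.33 from the control mean in RNASEH2A KO replicates 1 to 3, and -0.03, 0.01 and 0.02 in CTRV2 control replicates 1 to 3, on the log2 scale. DHX9 itself lay -0.33, -0.24 and -0.29 from its control mean in RNASEH2A KO replicates 1 to 3. With the neighbours' median subtracted in each library, the log2 fold change of DHX9 was -0.01 (edgeR adjusted p = 0.941). No member was called with this subtraction, against 6.82% of tested genes. It moved DDX21 to -0.21, THOC1 to -0.24, SENP3 to -0.19 and DDX5 to -0.05, each further below 0 than before. SRSF1 moved to -0.18, XRN2 to -0.10 and DDX41 to 0.06, each nearer 0, and AQR to 0.0051, with its direction turned. LAMC1, the next tested gene downstream of DHX9 and named after its value was seen, encodes a laminin chain. The log2 fold change of LAMC1 was -0.32 ± 0.08 (edgeR adjusted p = 0.0402).

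**Figure D2:**
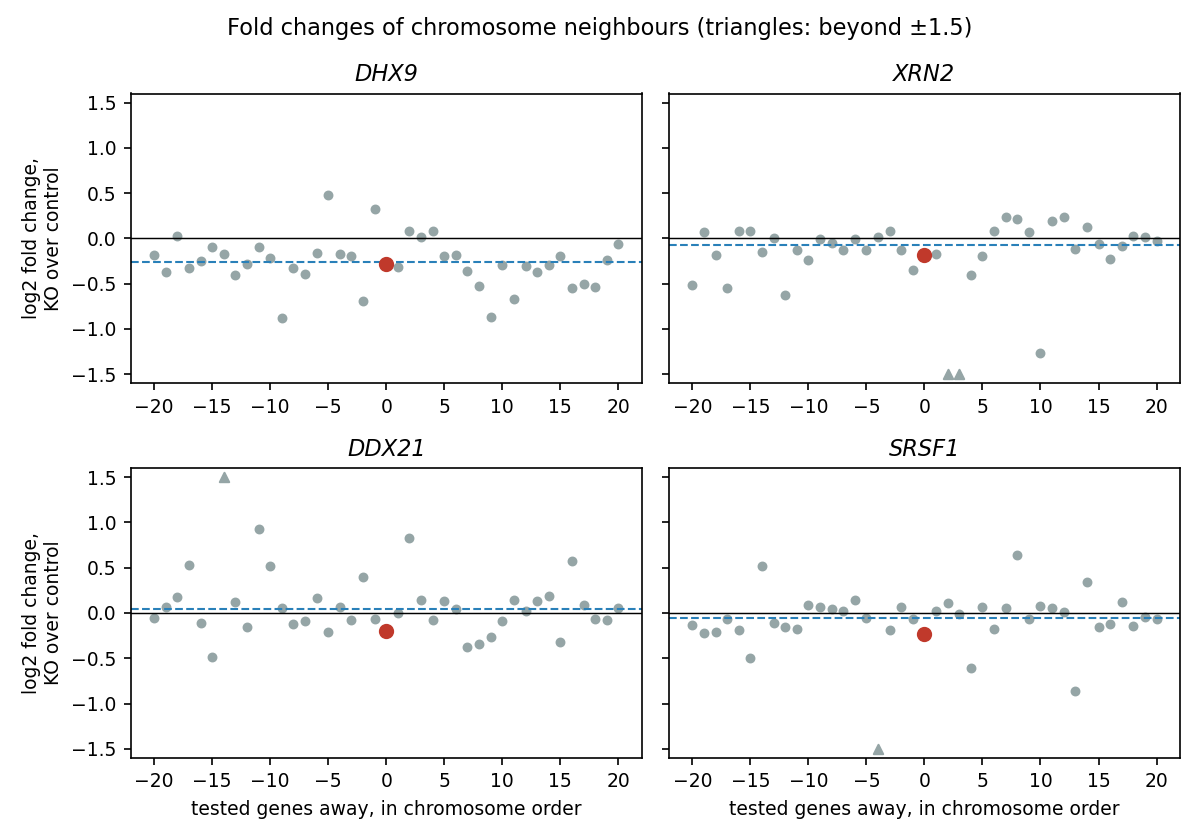
Log2 fold change of RNASEH2A KO over CTRV2 control (y axis) for tested genes in chromosome order (x axis, number of tested genes away) around DHX9, XRN2, DDX21 and SRSF1. The red point is the named gene, triangles lie beyond the axis, and the dashed line the median of its 40 neighbours, which lies at -0.26 for DHX9, -0.07 for XRN2, 0.05 for DDX21 and -0.06 for SRSF1.

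The genes with the profile most like that of DHX9 were SNRPE and GALNT10, by the smallest root mean square difference of centred log2 CPM over the 6 libraries, at 0.0161 and 0.0170 among 10487 candidates. SNRPE, a core protein of spliceosomal snRNPs that also lies on chromosome 1, had 51.0, 54.1 and 51.8 CPM in RNASEH2A KO, against 65.0, 64.1 and 65.6 CPM in CTRV2 control. GALNT10, a glycosyltransferase gene on chromosome 5, had 289, 301 and 292 CPM in RNASEH2A KO, against 344, 356 and 363 CPM in CTRV2 control.

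DDX5, or p68, is a DEAD-box helicase with roles in splicing and transcription (chromosome 17, 64499616 to 64508199, minus strand). It had 403, 367 and 405 CPM in RNASEH2A KO replicates 1 to 3, against 413, 402 and 389 CPM in CTRV2 control replicates 1 to 3. The groups overlapped, with RNASEH2A KO replicate 2 the lowest library. Its log2 fold change was -0.04 ± 0.06 (SE), with a 95% interval of -0.17 to 0.10 and an edgeR adjusted p = 0.758. Its close paralogue DDX17 was at 167 ± 34.9 CPM in RNASEH2A KO and 198 ± 21.9 CPM in CTRV2 control (edgeR adjusted p = 0.284). DDX17 was chosen as a paralogue, and reads that match both could have been split between them.

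DDX21 is a mainly nucleolar helicase of ribosomal RNA synthesis that also unwinds R-loops (chromosome 10, 68956128 to 68985073, plus strand). It had 297, 378 and 340 CPM in RNASEH2A KO replicates 1 to 3, against 392.1, 380.6 and 394.3 CPM in CTRV2 control replicates 1 to 3. The groups did not overlap, but RNASEH2A KO replicate 2 came within a few CPM of the lowest control, and the RNASEH2A KO libraries spread over a far wider range than the controls. The log2 fold change was -0.20 ± 0.08 (SE, 95% interval -0.39 to -0.01), with an edgeR adjusted p = 0.152. Leaving out RNASEH2A KO replicate 1 gave -0.12, and leaving out RNASEH2A KO replicate 2 gave -0.28 (edgeR adjusted p = 0.0495). Over all alternatives the adjusted p of DDX21 ran from 0.0495 to 1. The 1 came from the test against a 1.5-fold change, and the next highest value was 0.355, without CTRV2 control replicate 3. Its 40 neighbours had a median of 0.05.

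DDX41, a DEAD-box helicase of the spliceosome and of nucleic acid sensing (chromosome 5, 177511577 to 177517469, minus strand), was the only member with a fold change above 0. It had 81.9, 83.5 and 94.3 CPM in RNASEH2A KO, against 81.2, 80.2 and 78.6 CPM in CTRV2 control. RNASEH2A KO replicate 3 was the highest, and replicate 1 exceeded the highest control by less than 1 CPM. The log2 fold change was 0.11 ± 0.07 (SE, 95% interval -0.05 to 0.28, edgeR adjusted p = 0.352), and 0.05 without RNASEH2A KO replicate 3. AQR, a helicase of the intron-binding complex of the spliceosome (chromosome 15, 34851782 to 34969839, minus strand), had 72.1, 67.6 and 67.3 CPM in RNASEH2A KO, against 71.9, 69.6 and 70.5 CPM in CTRV2 control. Its groups overlapped, and its 95% interval of -0.18 to 0.11 around a log2 fold change of -0.03 (edgeR adjusted p = 0.781) spans 0.

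XRN2 is the nuclear 5′ to 3′ exonuclease that degrades RNA downstream of the poly-A site and helps RNA polymerase II to terminate (chromosome 20, 21303304 to 21389827, plus strand). It had 149, 150 and 151 CPM in RNASEH2A KO replicates 1 to 3, against 174, 171 and 166 CPM in CTRV2 control replicates 1 to 3. The RNASEH2A KO values were nearly identical to each other and lay below every control. The log2 fold change was -0.19 ± 0.06 (SE, 95% interval -0.32 to -0.06), and the edgeR adjusted p = 0.0635 did not pass. XRN2 passed with DESeq2 (adjusted p = 0.0382, where 7.85% of tested genes were called lower). It also passed without RNASEH2A KO replicate 1 (edgeR adjusted p = 0.031). Over all alternatives the adjusted p of XRN2 ran from 0.031 to 1. The 1 came from the test against a 1.5-fold change, and the next highest value was 0.343, with its neighbours' median subtracted. Of its 40 neighbours 25 were below 0, 6 were called lower and 0 higher, and with their median of -0.07 subtracted by library its log2 fold change was -0.10 (edgeR adjusted p = 0.343). Among them LINC00261, a non-coding RNA named after its value was seen, was at 0.312 CPM in RNASEH2A KO and 3.51 CPM in CTRV2 control (log2 fold change -3.45 ± 0.37 SE, edgeR adjusted p = 0.000783).

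**Figure D3:**
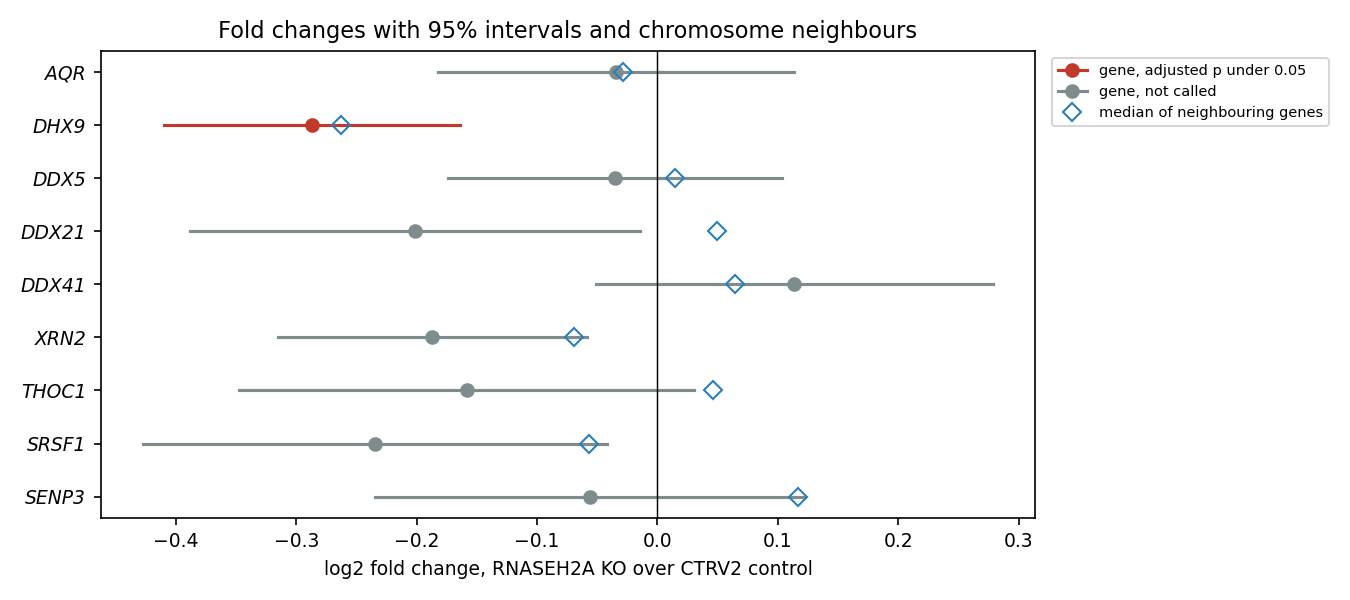
Log2 fold change of RNASEH2A KO over CTRV2 control (x axis) for the 9 genes (rows), with 95% intervals from the edgeR fit over 3 and 3 libraries. Diamonds mark the median fold change of neighbouring tested genes, which for DHX9 is -0.26 beside its own -0.29 and for DDX21 is 0.05 beside -0.20.

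THOC1 is a subunit of the THO complex, which packages nascent mRNA for export (chromosome 18, 214520 to 268050, minus strand). It had 27.3, 28.4 and 30.9 CPM in RNASEH2A KO, against 33.5, 30.8 and 32.3 CPM in CTRV2 control, and the highest RNASEH2A KO library just exceeded the lowest control. Its log2 fold change was -0.16 ± 0.08 (SE, 95% interval -0.35 to 0.03, edgeR adjusted p = 0.257). SRSF1 is a splicing factor of the SR family whose loss is known to raise R-loop levels in vertebrate cells (chromosome 17, 58003360 to 58007346, minus strand). It had 76.7, 91.5 and 77.8 CPM in RNASEH2A KO, against 90.3, 97.6 and 102 CPM in CTRV2 control. RNASEH2A KO replicate 2 and CTRV2 control replicate 1 overlapped, and the other libraries were apart. The log2 fold change was -0.23 ± 0.09 (SE, 95% interval -0.43 to -0.04, edgeR adjusted p = 0.109). Without RNASEH2A KO replicate 2 it was -0.31 (edgeR adjusted p = 0.0409). Over all alternatives the adjusted p of SRSF1 ran from 0.0297 to 1. The 1 came from the test against a 1.5-fold change, and the next highest value was 0.338, without CTRV2 control replicate 3. In GENCODE 29, 56.6% of its exonic bases are also covered by the gene model AC015813.2 on its strand.

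SENP3 is a nucleolar protease that removes SUMO2/3 from its targets (chromosome 17, 7561875 to 7571969, plus strand). It had 46.0, 54.1 and 49.1 CPM in RNASEH2A KO, against 51.0, 52.5 and 51.5 CPM in CTRV2 control, with the highest and the lowest library both in RNASEH2A KO. Its log2 fold change was -0.06 ± 0.08 (SE, 95% interval -0.23 to 0.12, edgeR adjusted p = 0.697). The readthrough gene SENP3-EIF4A1 shares 41.2% of its exonic bases on the same strand and had 1, 4 and 7 counts in RNASEH2A KO, against 9, 2 and 0 in CTRV2 control. The downstream partner of that readthrough, EIF4A1, which encodes a translation initiation helicase, was at 1.78 ± 0.360 CPM in RNASEH2A KO and 1.37 ± 0.294 CPM in CTRV2 control, with the same doubt as for RNASEH2A. Its paralogue EIF4A2 was at 257 ± 9.23 CPM in RNASEH2A KO and 205 ± 7.63 CPM in CTRV2 control. EIF4A2 was called higher, with a log2 fold change of 0.32 (edgeR adjusted p = 0.00948, and 0.0116 with the neighbours' median subtracted). These genes were chosen for their position or sequence, not by the rule for named genes. The labels do not say how reads that match more than 1 gene were counted, so the levels of SENP3 and EIF4A1 are uncertain where their exons are shared.

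RNASEH2A KO replicate 1 held the lowest library value of DHX9, DDX21, XRN2, THOC1, SRSF1 and SENP3, and the highest of AQR. Without it, XRN2 and DHX9 were called, beside 23.8% of all tested genes. Without RNASEH2A KO replicate 2, DHX9, DDX21 and SRSF1 were called, beside 10% of all tested genes. With the replicate numbers as a block DHX9, XRN2 and SRSF1 were called, beside 21.8% of tested genes, and with DESeq2 DHX9 and XRN2, beside 15.5%. Against a 1.5-fold change no member was called, beside 1.08%, and without CTRV2 control replicate 1 DHX9 was, beside 7.31%. In each of the fits without RNASEH2A KO replicate 3, CTRV2 control replicate 2 or CTRV2 control replicate 3, no member was called, beside 3.61%, 4.48% and 3.79% of tested genes.

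**Figure D4:**
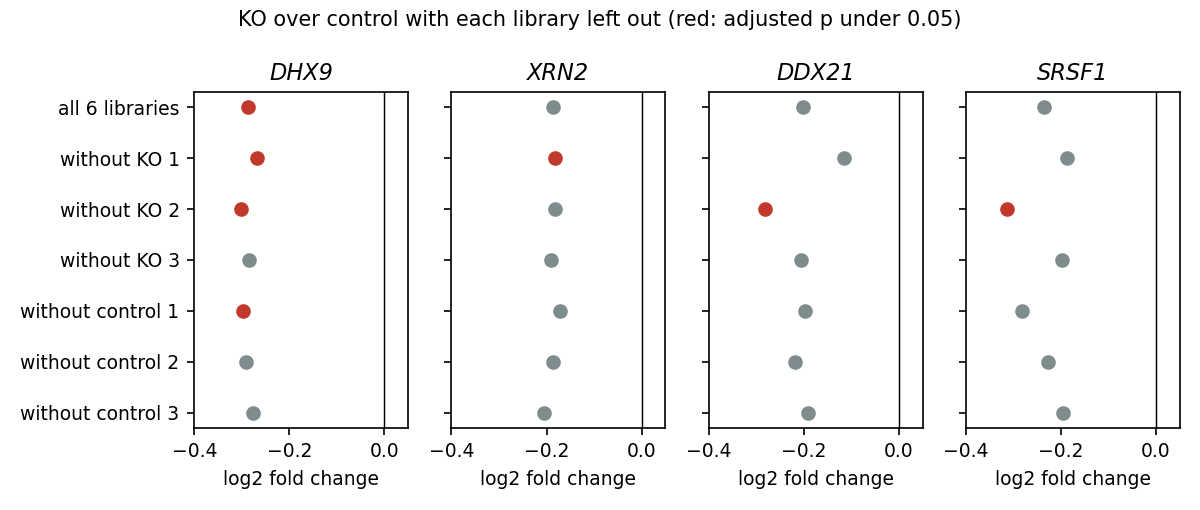
Log2 fold change of RNASEH2A KO over CTRV2 control (x axes) for DHX9, XRN2, DDX21 and SRSF1 with all 6 libraries and with each library left out (rows). Red points passed an adjusted p of 0.05 in edgeR, and every point lies below 0, with DHX9 between -0.30 and -0.27 and DDX21 between -0.28 and -0.12.

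Promoters are shown for the 4 members whose library values did not overlap, 250 bases before to 50 after the RefSeq start (GRCh38.p14), with 8 short motifs in capitals on either strand: CCAAT, the GC box GGGCGG, the ETS motif CCGGAAG, the E-box CACGTG, the NRF1 motif, the TATA motif TATAAA, the YY1 motif AAGATGGC and the cyclic AMP response element TGACGTCA. None of these motifs contains another. All 9 members matched the promoter table, and the window nearest the GENCODE gene start was used.
DHX9 (chr1:182839097-182839396, plus strand): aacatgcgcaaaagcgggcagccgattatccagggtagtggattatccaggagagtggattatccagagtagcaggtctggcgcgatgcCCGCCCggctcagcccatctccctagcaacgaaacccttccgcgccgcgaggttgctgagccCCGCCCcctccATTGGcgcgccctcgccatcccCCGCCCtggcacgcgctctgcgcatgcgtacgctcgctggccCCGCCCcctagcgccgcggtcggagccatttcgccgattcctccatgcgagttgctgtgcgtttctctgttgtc
XRN2 (chr20:21303081-21303380, plus strand): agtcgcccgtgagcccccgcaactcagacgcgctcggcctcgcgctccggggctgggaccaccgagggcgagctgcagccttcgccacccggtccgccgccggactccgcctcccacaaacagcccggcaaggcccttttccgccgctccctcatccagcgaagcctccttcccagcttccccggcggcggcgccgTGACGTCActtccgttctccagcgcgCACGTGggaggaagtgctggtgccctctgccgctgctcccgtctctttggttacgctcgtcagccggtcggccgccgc
DDX21 (chr10:68955920-68956219, plus strand): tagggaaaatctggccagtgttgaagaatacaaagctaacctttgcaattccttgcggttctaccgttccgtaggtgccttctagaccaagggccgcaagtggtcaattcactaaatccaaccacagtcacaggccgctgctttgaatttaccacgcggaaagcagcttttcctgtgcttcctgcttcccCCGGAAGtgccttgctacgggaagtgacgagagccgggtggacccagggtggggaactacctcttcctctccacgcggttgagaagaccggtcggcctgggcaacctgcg
DDX41 (chr5:177516912-177517211, minus strand): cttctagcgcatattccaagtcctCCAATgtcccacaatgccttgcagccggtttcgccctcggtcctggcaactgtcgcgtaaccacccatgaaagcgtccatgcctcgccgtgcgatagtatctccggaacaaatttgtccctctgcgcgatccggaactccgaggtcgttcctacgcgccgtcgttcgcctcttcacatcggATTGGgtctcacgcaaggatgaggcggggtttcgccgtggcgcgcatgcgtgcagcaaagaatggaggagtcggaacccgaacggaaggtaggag
The DHX9 window held the GC box and CCAAT, XRN2 the cyclic AMP response element and the E-box, DDX21 the ETS motif and DDX41 CCAAT, so DHX9, XRN2 and DDX21 had no motif in common. Over the 9 members 5 windows held the GC box, 3 the ETS motif, and 2 each CCAAT, the E-box, the NRF1 motif and the cyclic AMP response element, while 0 held the TATA or the YY1 motif. Of all 35116 RefSeq promoters 45.0% held the GC box, 34.6% CCAAT, 11.5% the TATA motif, 10.3% the ETS motif, 7.26% the E-box, 5.78% the NRF1 motif, 2.89% the YY1 motif and 1.85% the cyclic AMP response element. The members' windows had a median GC content of 62.0%, against 58.7% for all promoters. These matches describe the letters in the windows and were not tested for binding.

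Beyond the 9, 143 genes were listed in 8 groups of partners, relatives and other factors named in R-loop work, and 139 of them were tested. In RNASEH2A KO 4 rose, 7 fell and 128 did not pass, or 7.91% called against 12.1% of all tested genes. Their median log2 fold change was -0.03. With the neighbours' median subtracted, 2 of these 11 were called, CPSF1 and TRMT6.

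Among 25 other helicases and translocases that act on hybrids, 1 rose and 0 fell, or 4% called against 12.1% of all tested genes. The riser was RECQL5, a RecQ helicase that binds RNA polymerase II, at 21.7 ± 0.454 CPM in RNASEH2A KO and 17.1 ± 1.35 CPM in CTRV2 control (log2 fold change 0.35 ± 0.09 SE, edgeR adjusted p = 0.0415, and 0.189 with the neighbours' median subtracted). RECQL5 was not called when RNASEH2A KO replicate 2 or 3 or any 1 CTRV2 control library was left out (edgeR adjusted p of 0.0632 to 0.149). Without RNASEH2A KO replicate 1 the list had 5 calls, beside 23.8% of all tested genes. Of 15 tested genes of THO, TREX and mRNA export, which include the partners of THOC1, 0 passed in edgeR, 0 in DESeq2 and 0 in limma-voom, and 2 had an unadjusted edgeR p under 0.05, or 13.3%, against 27.7% of all tested genes. Without RNASEH2A KO replicate 1, 1 was called, ENY2 (edgeR adjusted p = 0.0341), beside 23.8% of all tested genes. The 2 genes were CHTOP, a TREX subunit, at 61.8 ± 0.882 CPM in RNASEH2A KO and 70.6 ± 4.68 CPM in CTRV2 control (adjusted p = 0.117), and ENY2, at 120 ± 5.18 and 106 ± 6.32 CPM in the same order (adjusted p = 0.133).

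Of 15 tested SR splicing factors and their kinases 0 passed in edgeR, 0 in DESeq2 and 0 in limma-voom, and 6, or 40%, had an unadjusted edgeR p under 0.05, against 27.7% of all tested genes. The genes under 0.05 include SRSF8, with a log2 fold change of 0.18 (edgeR adjusted p = 0.109). Below all controls were 6 genes, or 40%, against 17.4% of all tested genes, and 1 gene was above all controls. In edgeR, 3 were called with the neighbours' median subtracted, beside 6.82% of all tested genes. With the replicate block 2 were called, beside 21.8%, and without RNASEH2A KO replicate 1 3 were, beside 23.8%. Their median log2 fold change was -0.07. TRA2B, an SR-like splicing factor, was at 188 ± 10.3 CPM in RNASEH2A KO and 214 ± 4.20 CPM in CTRV2 control (log2 fold change -0.19, edgeR adjusted p = 0.0811). SRPK1, a kinase that phosphorylates SRSF1, was at 195 ± 13.6 CPM in RNASEH2A KO and 223 ± 7.98 CPM in CTRV2 control (-0.20, edgeR adjusted p = 0.0948, and 0.0117 with the neighbours' median of 0.15 subtracted).

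In the intron-binding and Prp19 complexes, where AQR acts, 2 of 12 rose and 1 fell. That is 25% called, against 12.1% of all tested genes. XAB2, which sits beside AQR in the intron-binding complex, was at 95.7 ± 6.88 CPM in RNASEH2A KO and 70.3 ± 1.11 CPM in CTRV2 control (log2 fold change 0.44 ± 0.07 SE, edgeR adjusted p = 0.0052). SNW1, a spliceosome and transcription cofactor, rose by 0.22 ± 0.06, and BCAS2, a Prp19 complex subunit, fell by 0.37 ± 0.09 on the log2 scale. The neighbours' medians were 0.19 for XAB2, 0.07 for SNW1 and -0.20 for BCAS2, and with them subtracted the log2 fold changes were 0.23, 0.15 and -0.18 and none of the 3 passed (edgeR adjusted p of 0.0642, 0.218 and 0.329). XAB2 passed with each library left out. BCAS2 did not pass without RNASEH2A KO replicate 3 or CTRV2 control replicate 2 or 3 (0.0789 to 0.125), nor SNW1 without RNASEH2A KO replicate 2 or 3 or any 1 CTRV2 control library (0.0723 to 0.199). With 4.17% called against 12.1% of all tested genes, 1 of 24 termination and exonuclease genes rose and 0 fell. It was CPSF1, the largest subunit of the cleavage and polyadenylation complex, with 140, 161 and 169 CPM in RNASEH2A KO replicates 1 to 3, against 111, 115 and 112 CPM in CTRV2 control replicates 1 to 3 (log2 fold change 0.48 ± 0.08 SE, edgeR adjusted p = 0.00517). With the neighbours' median subtracted the log2 fold change of CPSF1 was 0.29 (edgeR adjusted p = 0.0283).

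Among 13 genes of the rixosome and the SENP family, the setting of SENP3, 0 rose and 2 fell. That is 15.4% called, against 12.1% of all tested genes. NPM1, the nucleolar protein nucleophosmin and a SENP3 substrate, was at 809 ± 101 CPM in RNASEH2A KO and 1019 ± 28.2 CPM in CTRV2 control (log2 fold change -0.33 ± 0.09 SE, edgeR adjusted p = 0.0334). WDR18, a rixosome subunit, was at 58.1 ± 6.02 CPM in RNASEH2A KO and 73.4 ± 1.71 CPM in CTRV2 control (-0.34 ± 0.09 SE, adjusted p = 0.0318). With the neighbours' medians of -0.03 and -0.08 subtracted, NPM1 was at -0.30 and WDR18 at -0.25 (edgeR adjusted p of 0.0902 and 0.102). Neither was called without RNASEH2A KO replicate 3 or without any 1 CTRV2 control library (0.0668 to 0.137 for NPM1 and 0.0845 to 0.128 for WDR18). For NPM1 and WDR18, as for DDX21, RNASEH2A KO replicate 1 was the lowest library. Of 17 tested topoisomerase and chromatin genes 0 passed in edgeR, 0 in DESeq2 and 0 in limma-voom, and 5 had an unadjusted edgeR p under 0.05, or 29.4%, against 27.7% of all tested genes. In edgeR, 4 were called with the replicate block, beside 21.8% of all tested genes, and 2 without RNASEH2A KO replicate 1, beside 23.8%. With no filter on low counts 1 was called, beside 2246 calls over all genes. Their median log2 fold change was 0.02, with 4 genes above all controls and 1 below, which was HDAC2, a histone deacetylase gene (-0.20, edgeR adjusted p = 0.073).

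Of 18 RNA modification and RNA-binding factors 0 rose and 4 fell, or 22.2% called against 12.1% of all tested genes. The median log2 fold change was -0.11, and 8, or 44.4%, were below all controls, against 17.4% of all tested genes. The list had 1 call without RNASEH2A KO replicate 3, CTRV2 control replicate 2 or CTRV2 control replicate 3, beside 3.61%, 4.48% and 3.79% of all tested genes. It had 2 without CTRV2 control replicate 1, beside 7.31%, and 3 without RNASEH2A KO replicate 2, beside 10%. Without RNASEH2A KO replicate 1 it had 6, beside 23.8%. TRMT6, a subunit of the methyltransferase that makes 1-methyladenosine in tRNA and called with each library left out, had 23.5, 28.4 and 24.4 CPM in RNASEH2A KO replicates 1 to 3, against 41.6, 41.5 and 46.8 CPM in CTRV2 control replicates 1 to 3. Its groups did not overlap, with a log2 fold change of -0.77 ± 0.10 (SE, edgeR adjusted p = 0.00154), and -0.51 with the neighbours' median of -0.25 on chromosome 20 subtracted (adjusted p = 0.0116). HNRNPU, a nuclear matrix RNA-binding protein, fell by 0.28 ± 0.06, and the mitotic checkpoint protein gene BUB3 by 0.26 ± 0.06 on the log2 scale. Neighbours of these genes on chromosomes 1 and 10 had medians of -0.19 and -0.37, and with those subtracted HNRNPU was at -0.07 and BUB3, with the direction turned, at 0.16 (edgeR adjusted p of 0.508 and 0.167).

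**Figure D5:**
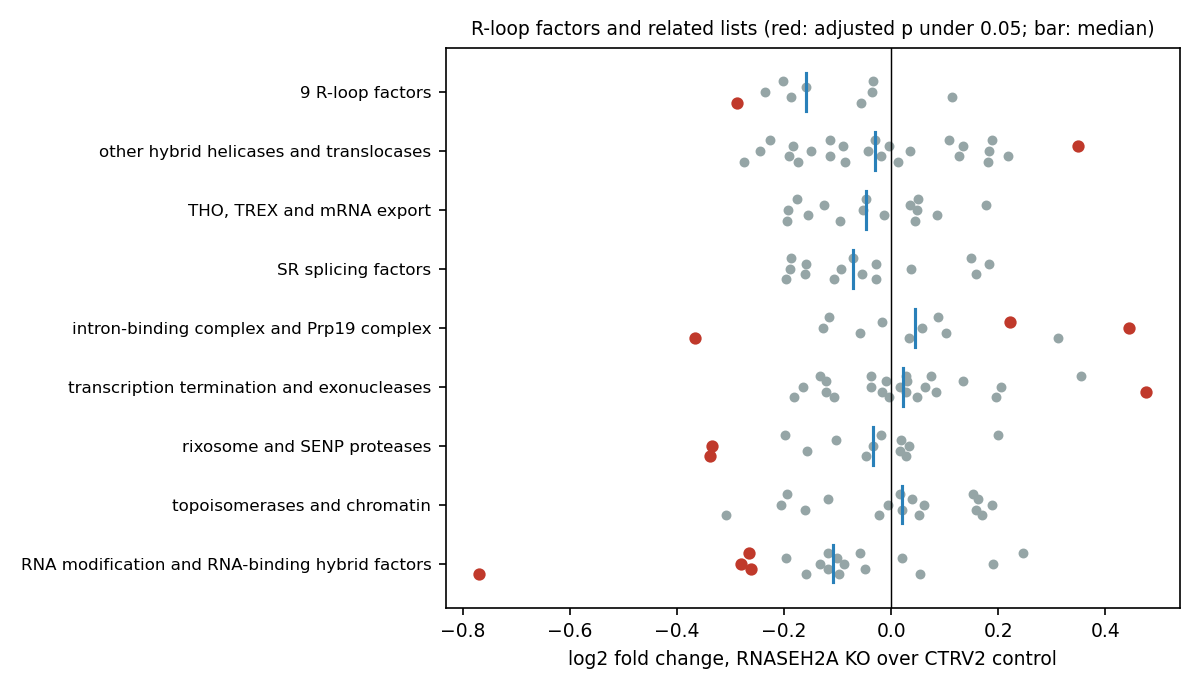
Log2 fold change of RNASEH2A KO over CTRV2 control (x axis) for the 9 R-loop factors and the 139 other tested factors by list (rows). Points are genes, red points passed an adjusted p of 0.05 in edgeR, and blue bars are list medians. Of the related genes, 4 red points lie above 0 and 7 below.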

How the data were processed

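Each library was a strand-specific poly-A selected mRNA library, per the labels' protocols. The submitters' processing notes name FastQC, the aligner STAR (version 2) and the build GRCh38. No label or header states how counting was done or with which gene models. The deposited table holds raw read counts for 25330 symbols, per the file headers, and the main tests used it. A second deposited table holds log2 CPM values of 15066 genes, made by the authors with a filter that is not given here, and served as an alternative.

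Groups were taken from the genotype label. Genes were kept by filterByExpr (14199), scaled by TMM and tested with edgeR 4.0.16 in R 4.3.3 on the group term alone. Each SE was derived from the log2 fold change and its F value. In a simulation with 3 and 3 libraries (14199 genes, 200 changed), 66.7% of 1.5-fold, 79.3% of 2-fold and 95.1% of 4-fold changes were recovered, and 3.66% of calls were false. The smallest of these changes exceeds that of every member, the largest being -18.0% for DHX9, so recovery at the members' size was not tested. Genes were drawn independently, with no shift shared by replicate or chromosome stretch, so the false share may not hold for the data, which gave 1718 calls. Replicates of a group differed by a chi-square of 2.49 to 36.9 per degree of freedom and were kept apart.

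Positions came from GENCODE 29 or RefSeq for all but 133 symbols. For the neighbour alternative, the median deviation of 20 tested genes on each side (21 genes in all for THOC1) entered edgeR as an offset. Other alternatives were DESeq2 1.42.0, limma-voom (limma 3.58.1), RLE factors, library size only, other filters, a replicate block, a test against 1.5-fold, limma on the authors' log2 table, and removal of 1 library at a time. The genes named are the 9 members, the RNase H genes, the called genes of each list or its 2 smallest p, and the 2 profiles nearest to a called member among genes of at least 5 CPM. Some genes that this rule selects are not reported here. The members and lists were chosen with earlier results of these data known.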

Additional observations from a re-analysis of the deposited data

How the results depend on the processing

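The members' directions held over all 16 alternatives except for AQR with the neighbours' median subtracted (log2 fold change 0.00510) and DDX5 without RNASEH2A KO replicate 2 (0.0161; range with a library left out -0.0594 to 0.0161). RNASEH1 ran from -0.101 to 0.0108, above 0 without RNASEH2A KO replicate 3, and BUB3 was at 0.158 with its neighbours subtracted. The log2 ratio of RNASEH2A ran from -0.21 to 0.13 when a library was left out, above 0 without RNASEH2A KO replicate 1 (0.0828), RNASEH2A KO replicate 2 (0.0162) or CTRV2 control replicate 3 (0.133).

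The count of members called, 1 in edgeR, was 2 with DESeq2, 3 with the replicate block (DHX9, XRN2 and SRSF1), 0 against a 1.5-fold change, 0 with neighbours subtracted, and 0 to 3 with a library left out. The count of other R-loop factors, 11, was 23 with the block, 0 against a 1.5-fold change, 5 with neighbours subtracted, and 3 to 25 with a library left out. Over all genes, 1718 became 3099 with the block, 153 against a 1.5-fold change, 967 with neighbours subtracted, and 524 to 3430 with a library left out. The cause of these shifts was not tested, except that the 1.5-fold test asks for a larger change.

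Same-numbered libraries deviated from their group means with correlations of 0.316, 0.139 and 0.0855. Replicate 1 of either group had correlations of -0.243 to -0.154 with replicates 2 and 3 of the other group. Deviations within a group cancel by construction, so the positive value for the replicate 1 pair forces negative values in other pairs. RNASEH2A KO replicate 2 correlated about equally with CTRV2 control replicate 3 (0.141) and with its own number (0.139). The main fit did not pair libraries by number, and whether the numbers mark a shared effect was not tested. At this depth the members had 789 to 12942 counts per library. The intervals come from the edgeR fit, which pools information on spread across genes, so they do not measure each gene's own spread between passages.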
